A study of Mus musculus with 21 samples.

Results

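The 10 genes described here encode transcription factors of the mouse oocyte. They are *Figla*, *Nobox*, *Lhx8*, *Sohlh1*, *Taf4b*, *Tbpl2* and the oocyte homeobox genes *Obox1*, *Obox2*, *Obox5* and *Obox7*, and they were chosen by name from the 54232 genes of the count table. Poly(A) RNA was sequenced from 21 libraries of 3 fully grown oocytes each, collected at the germinal vesicle stage 48 h after hormone injection from females 3 to 4 months old on a C57BL/6 background. All groups carried a floxed allele of *Kif11*, the gene of the kinesin that separates spindle poles. The control was wt/fl without Cre (4 libraries), which holds a wild-type and a floxed allele. The wt/fl Spo11-Cre group (5 libraries) loses the floxed allele through a Cre that acts in early meiotic prophase. The fl/del group (4 libraries) carries a constitutive deletion beside the floxed allele, and fl/del Spo11-Cre (4 libraries) loses that floxed allele too. In the fl/fl groups, Gdf9-Cre and Zp3-Cre (2 libraries each), both alleles are floxed and the Cre is driven by an oocyte promoter. The methods describe the 17 libraries of the Spo11-Cre background, with 1 or 2 libraries per mouse. The p-values thus measure a spread between libraries that is partly technical. Each n counts libraries and may stand for fewer mice, and the labels do not name the mouse. The 4 fl/fl libraries differ from the other 17 in genotype, driver and library set at once, and these cannot be told apart.

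In the growing oocyte, FIGLA is a basic helix-loop-helix factor that activates the zona pellucida genes through E-boxes. NOBOX and LHX8 are homeodomain factors and SOHLH1 is a helix-loop-helix factor, all needed for early follicle growth. TAF4B is a subunit of the general factor TFIID, and TBPL2 (also called TBP2 or TRF3) takes the place of the TATA-binding protein in oocytes. The OBOX proteins are homeodomain factors encoded by a mouse gene cluster, and they are stored in the egg and used when the embryonic genome is activated.

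The promoter windows of the 4 Obox members are near copies, so stretches of them are shown first. *Obox1* and *Obox2* also share much of their transcripts, which bears on how their reads can be counted. In GRCm38, *Obox7*, *Obox2*, *Obox1* and *Obox5* lie on the plus strand of chromosome 7, between 14659496 and 15759800, a span of 1100305 bp with 53 genes named Obox, 46 of them by pseudogene symbols. The RefSeq promoter windows (GRCm38.p6) of the 4 genes shared one run of 37 bases without a difference, whose last 30 bases, with an E-box (CANNTG) in capitals, are printed here. They begin 132 bases before the RefSeq start of *Obox1* (chr7:15547125-15547154), 35 before that of *Obox2* (chr7:15388816-15388845), 144 before that of *Obox5* (chr7:15750226-15750255) and 118 before that of *Obox7* (chr7:14659590-14659619). GENCODE places the starts of these genes earlier. By GENCODE the 30 bases lie in an untranslated exon, 94 to 143 bases after its first base, so whether they are promoter or transcript depends on the annotation.
*Obox1*, *Obox2*, *Obox5* and *Obox7*: ttctgtcaggaactttcagagcatCAAATG
In *Obox1* (chr7:15547222-15547251) and *Obox5* (chr7:15750323-15750352), a stretch of 30 bases around a TATATAA run (capitals) was identical. It ends 6 and 18 bases before their RefSeq starts and begins 240 and 192 bases inside the GENCODE exon.
*Obox1*: tccaagtttgcagagaTATATAAgggcagg
*Obox5*: tccaagtttgcagagaTATATAAgggcagg
*Nobox* (minus strand, chr6:43309555-43309674) is shown for comparison, since it is the member whose level differed between wt/fl Spo11-Cre and wt/fl. Its 120 bases before the start hold 1 E-box, in capitals.
*Nobox*: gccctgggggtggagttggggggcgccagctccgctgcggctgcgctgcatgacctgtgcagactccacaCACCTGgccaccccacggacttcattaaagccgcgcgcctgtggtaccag

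Windows were matched for 9 of the 10 genes, with none for *Taf4b*. Over the 250 bases before the RefSeq start on both strands, E-boxes (CANNTG) were found in every window except that of *Lhx8*, with 5 in *Sohlh1*, 4 in *Tbpl2*, 3 in *Obox2* and 2 in each of the others. Of all 32851 windows of this length, 66.2% hold one. The element bound by NOBOX (TAATTA or TAATTG) was in 11.3% of all windows and in 0 of the 9. TATAAA was in 12.4% of all windows and in 0 of the 9, and TATATAA in 3.04% of all windows and in those of *Obox1* and *Obox5*. Between pairs of Obox windows, at least 91.0% of the aligned bases were identical, over 141 to 238 bases.

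The likeness extends into the transcripts mainly for *Obox1* and *Obox2*. Of all distinct stretches of 100 bases in the GENCODE transcripts, 42.3% of those of *Obox1* were also present in *Obox2*, and 47.2% of those of *Obox2* in *Obox1*. For *Obox5* and *Obox7* the shares were 1.75% and 2.34%, and for the other 6 members none of the stretches was shared with another gene. The annotation also gives *Obox1* and *Obox2* 59 exonic bases in common, as one *Obox1* transcript starts inside *Obox2*. Because only uniquely mapped reads were counted, the division of counts between *Obox1* and *Obox2* is uncertain, and their levels may be understated.

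The libraries showed the labelled cell type. The summed level of 12 oocyte markers ranged from 25110 to 31993 CPM (counts scaled to a library total of 1000000) in the 21 libraries. The summed level of 14 granulosa and cumulus markers ranged from 73.6 to 125 CPM, most of it *Cyp19a1* (mean 66.1 CPM) and *Nr5a2* (28.5 CPM). *Kitl* was above 0 in all 21 libraries (3.84 CPM) and *Fshr*, *Cyp11a1* and *Star* in 19, at means of 0.684 to 1.2 CPM, while *Foxl2* was at 0 in 21 libraries, *Amhr2* in 20 and *Amh* in 18. The summed level of theca, stroma and blood markers ranged from 0.70 to 7.58 CPM. Of these, *Dcn* was above 0 in all 21 libraries (mean 3.38 CPM). The part of other cells in the results was not tested. Totals ranged from 7205010 to 18454549 counts, and the 4 fl/fl libraries were between 7801470 and 10759741. *Kif11* over all exons, the check of the labels, was highest in wt/fl at 34.5 ± 8.46 CPM (SD, n = 4), and was at 71.2% of that level with Spo11-Cre (log2 fold change -0.47, SE 0.20, adjusted p = 0.237), 34.5% in fl/del, 5.17% in fl/del Spo11-Cre, 14.5% with Gdf9-Cre and 17.7% with Zp3-Cre. The differences from wt/fl passed the test in the fl/del groups and in the fl/fl libraries.

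On the deposited TPM scale, which corrects for length, *Obox2*, *Obox1* and *Obox5* were the highest of the 10. *Obox2* had a mean of 8603 TPM over 21 libraries, the 6th highest level of all genes. *Obox1* followed at 3759 TPM (rank 23) and *Obox5* at 3575 TPM (rank 26), and the order of these neighbours is not settled, since their ranges overlapped and *Obox1* was higher in 16 of 21 libraries. *Nobox* at 748 TPM (rank 193) and *Obox7* at 706 TPM (rank 211) also overlapped, with *Nobox* higher in 11 of 21.

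*Figla* (166 TPM) stood above *Lhx8* (130 TPM) in 19 of 21 libraries with overlapping ranges. *Tbpl2* (38.8 TPM) and *Taf4b* (5.94 TPM) were lower, and each was below its upper neighbour in 21 of 21 libraries. Of the summed TPM of the 4 Obox genes, *Obox2* made up 51.6% ± 1.18 (SD, n = 21), *Obox1* 22.6% ± 0.848, *Obox5* 21.5% ± 1.19 and *Obox7* 4.24% ± 0.501. In the plot of TPM by gene, the steps from the Obox trio to *Nobox* and from *Lhx8* to *Tbpl2* separate the levels without overlap.

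**Figure D1:**
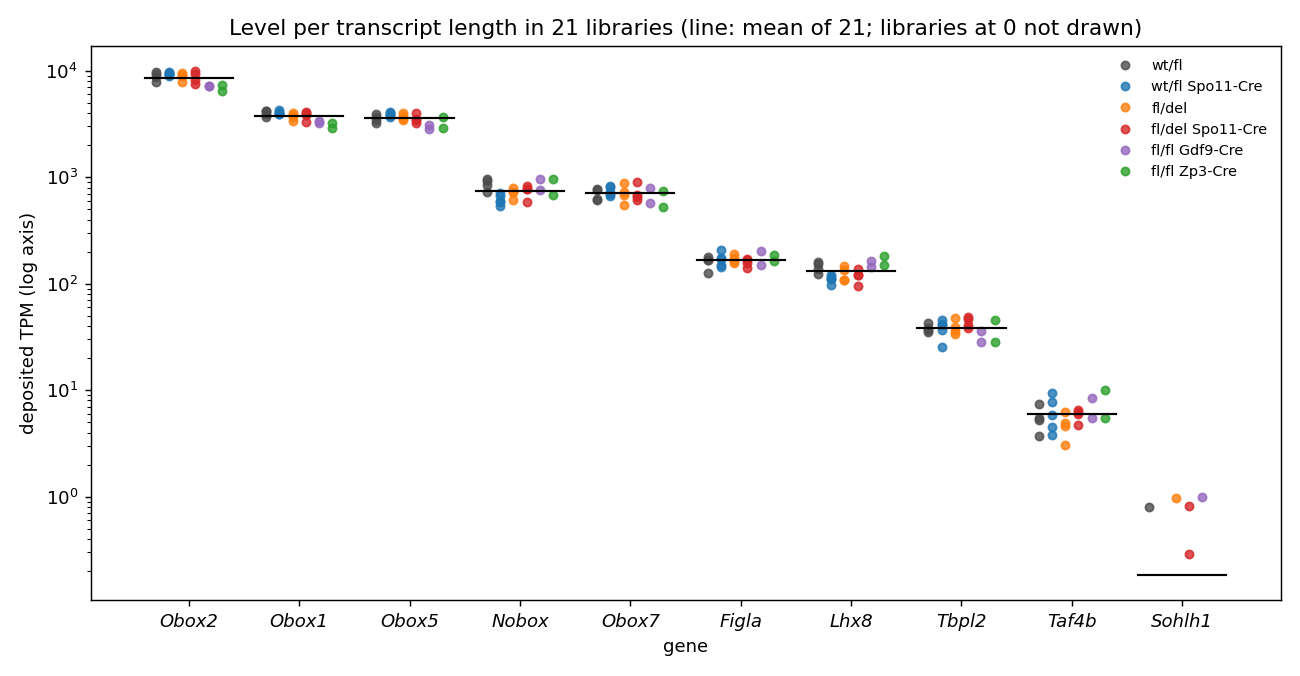
Deposited TPM (log axis) of the 10 genes in 21 libraries, ordered by mean; points are libraries coloured by group and lines are means of 21. *Obox2* is highest at a mean of 8603 TPM, and *Sohlh1* is drawn only in the 5 libraries where it was above 0.

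*Sohlh1*, which acts in primordial and primary follicles, was near the limit of detection. It had 6 counts in wt/fl replicate 1, 8 in fl/del replicate 1, 8 and 2 in fl/del Spo11-Cre replicates 2 and 4, 5 in fl/fl Gdf9-Cre replicate 2, and 0 in the other 16 libraries. Since the mates of a read pair seem to be counted one by one, these counts stand for fewer fragments. The limit that a count of 0 allows, taken as 3 counts of the total, is between 0.163 and 0.416 CPM in the libraries of this series. With mates counted one by one, 3 fragments would be more than 3 counts, so this limit may be too low. No difference between groups was detectable at this depth. *Sohlh1* passed the filter of a count above 0 in at least 3 libraries through these few counts, and no fold change is given for it.

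The other members of the Obox list were also near 0. *Obox3* had a mean of 0.605 TPM and *Obox6*, the highest of them, 0.643 TPM, while *Obox8* was at 0 in 17 libraries and *Obox4-ps7* at 0 in 21. Of this list of 4, 3 passed the filter, and at these levels no fold change is given for them.

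The main question was whether the level of these factors differed between the groups of *Kif11* genotype and Cre. Between wt/fl Spo11-Cre and wt/fl, the presence of the Cre and the loss of the floxed allele come together. No group carries Spo11-Cre without loss of a floxed allele, so these cannot be told apart. With Spo11-Cre in wt/fl oocytes, *Nobox* fell, and it was the only one of the 10 called. It measured 696, 751, 602 and 779 CPM in wt/fl and 492, 497, 597, 556 and 462 CPM in wt/fl Spo11-Cre. All 5 Cre libraries lay below all 4 control libraries, although the lowest control was close to the highest Cre library. Of 28196 genes with a count, 3.93% did not overlap between these groups. The means were 707 ± 77.9 (SD, n = 4) and 521 ± 54.4 CPM (n = 5), which is 73.6% of the control, and the fitted log2 fold change was -0.42 (SE 0.09, edgeR adjusted p = 0.00305). An exact two-sided permutation test of the means gave p = 0.0159, the smallest that 5 against 4 libraries allow. That test takes libraries, not mice, as its units. All 10 members passed the filter on low counts, and of all 22383 genes tested in this comparison 2.19% were called, 194 higher and 297 lower. In pooled oocytes, fewer cells that express a gene and less RNA per cell cannot be told apart. Over the 9 members with a mean of at least 10 CPM, the median log2 fold change was 0.13, beside 0.03 over all genes tested.

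*Lhx8* lay in the same direction without passing the test. It measured 127, 155, 144 and 164 CPM in wt/fl and 122, 117, 127, 117 and 106 CPM in wt/fl Spo11-Cre, so that the lowest control and the highest Cre library overlapped. The log2 fold change was -0.30 (SE 0.10, adjusted p = 0.0995). The 4 Obox genes had positive values in the same comparison, from 0.08 for *Obox1* to 0.19 for *Obox5* (SE 0.07 each), and none passed. *Figla* had 0.16 (SE 0.12), *Taf4b* 0.26 (SE 0.24) and *Tbpl2* 0.05 (SE 0.17).

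**Figure D2:**
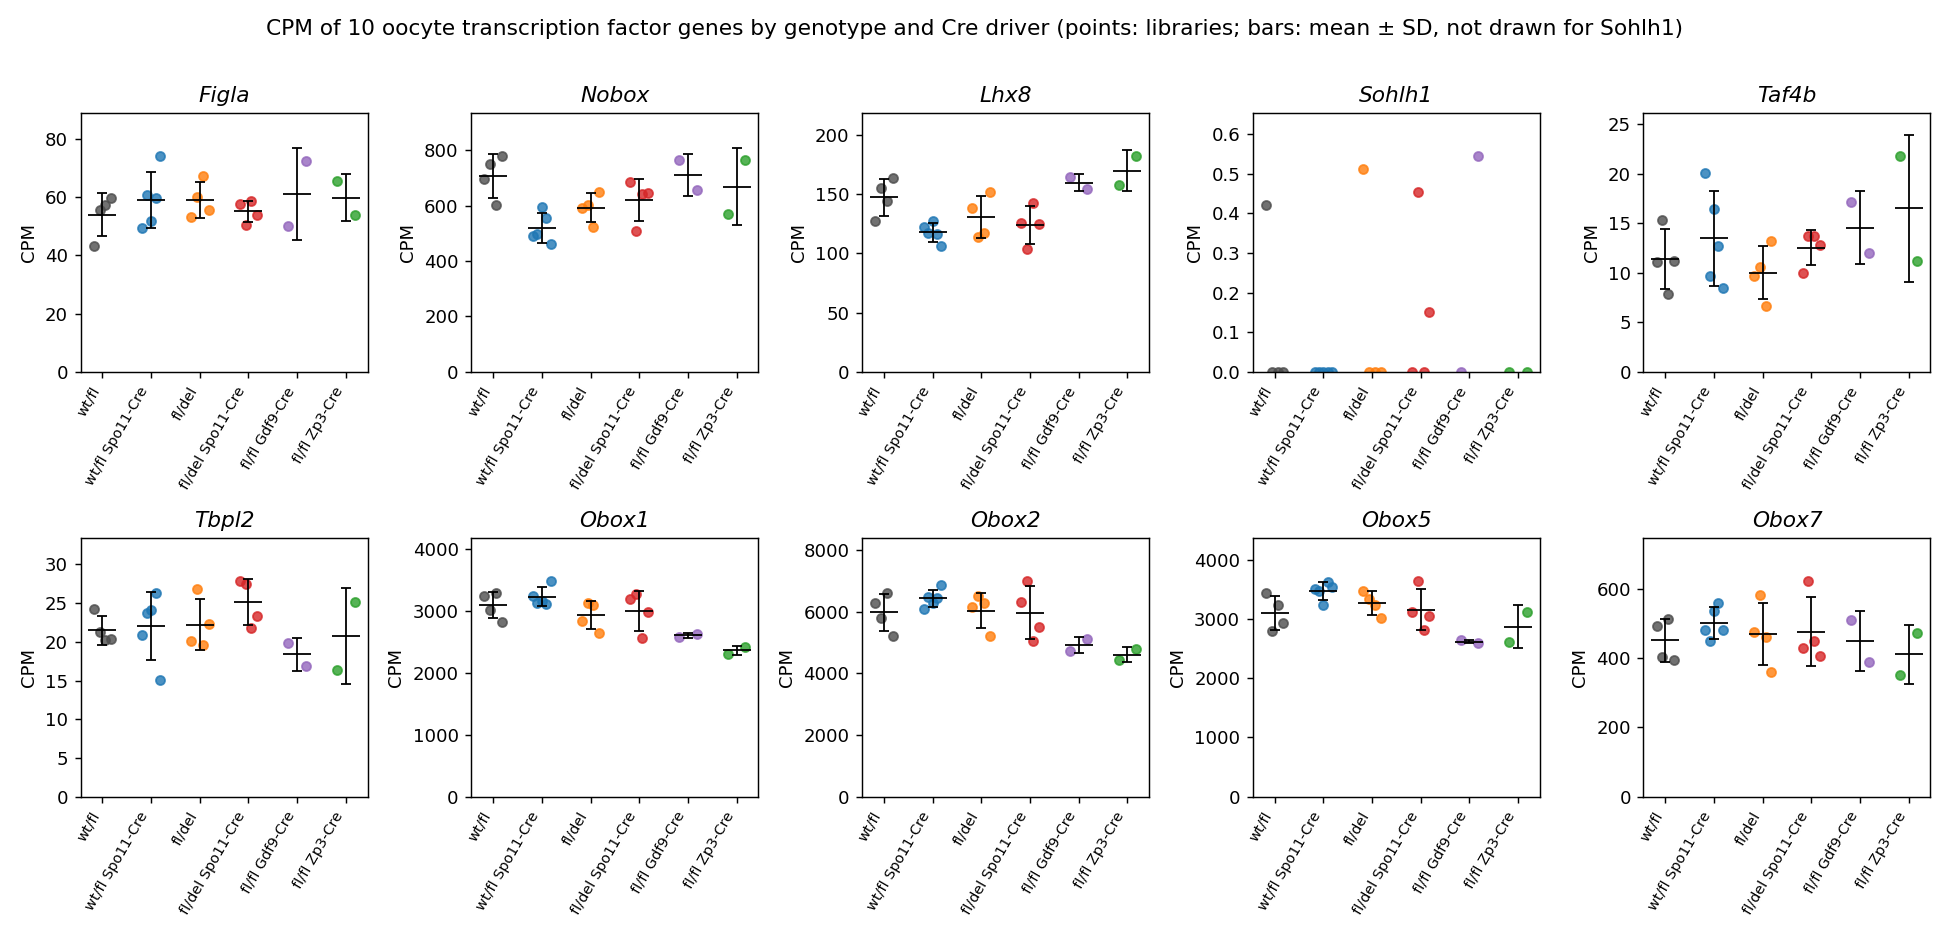
CPM of the 10 genes in each library (points) by genotype and Cre driver, with mean ± SD as bars except for *Sohlh1*; each panel has its own axis from 0. *Nobox* is lowest in wt/fl Spo11-Cre at 521 ± 54.4 CPM, and *Obox1* and *Obox2* are lowest in the 4 fl/fl libraries.

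A measure of the libraries moved together with *Nobox*. For each library, a length index was taken as the median log2 ratio to the wt/fl mean of 436 genes with under 1000 bp of exon, less that of 4035 genes with over 4000 bp. It ran from -0.09 to 0.12 in wt/fl (mean 0.002) and from 0.09 to 0.48 in wt/fl Spo11-Cre (mean 0.22). On average, wt/fl Spo11-Cre libraries thus held relatively more counts of short genes than wt/fl. The fl/del genotype also had higher means than wt/fl, 0.12 without Cre (range 0.04 to 0.31) and 0.15 with Spo11-Cre (range 0.05 to 0.36). A higher mean index than in wt/fl was therefore not particular to the groups with Cre. Over the 17 libraries, log2 CPM of *Nobox* had a Pearson r of -0.84 with the index and that of *Lhx8* -0.83, while *Obox1*, *Obox2*, *Obox5* and *Obox7* had 0.57, 0.69, 0.64 and 0.53, and *Figla* 0.45. These points share libraries and mice, and the values are a description. *Nobox* has 2012 bp of merged exon, *Lhx8* 2532, *Figla* 836 and the Obox genes from 1602 to 2136. *Taf4b*, the longest with 5149 bp, had an r of -0.37 with the index, and *Tbpl2*, with 1379 bp, had -0.20. With the index as a covariate, a fit added after the data were seen, the log2 fold change of *Nobox* with Spo11-Cre was -0.22 (SE 0.09, adjusted p = 0.344). In that fit the number of all genes called went from 491 to 57. The index was taken from the same counts, relative to wt/fl, and differs between the groups compared. The fit can therefore remove a difference between groups along with one between libraries, and these cannot be told apart.

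**Figure D3:**
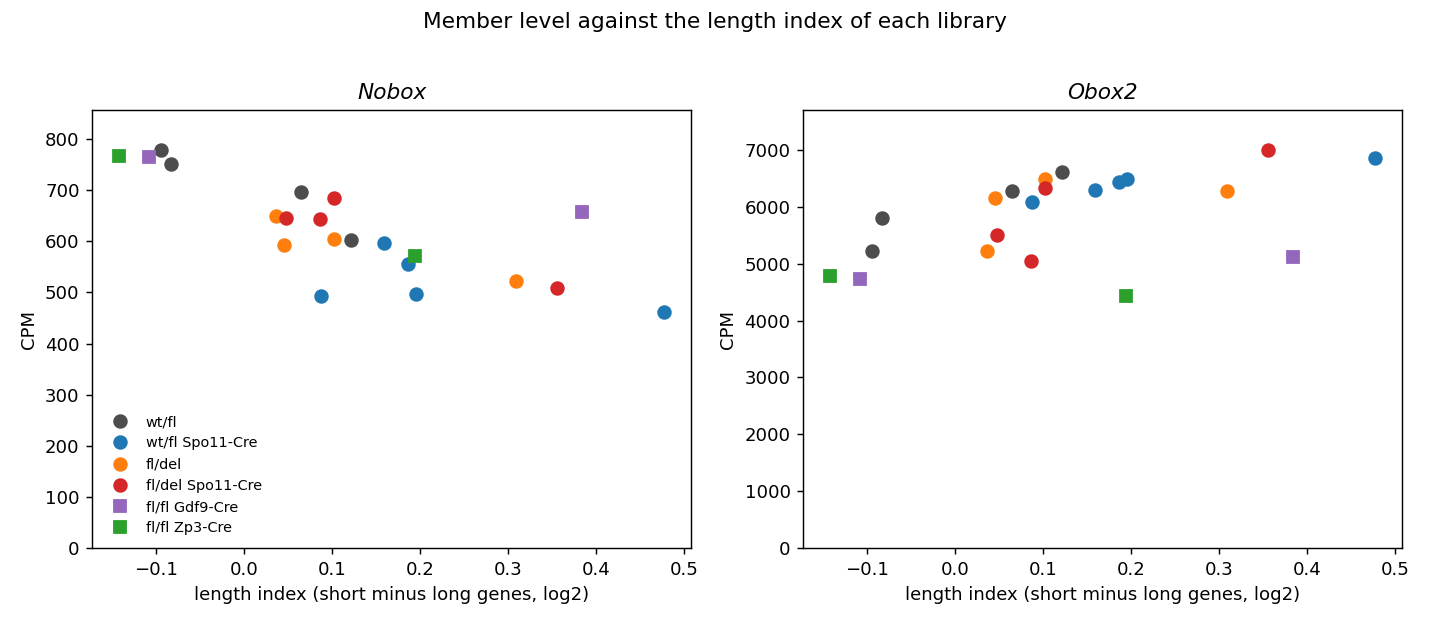
CPM of *Nobox* and *Obox2* (axes from 0) against the length index of each library (log2, short less long genes); circles are the 17 libraries of the Spo11-Cre background and squares the 4 fl/fl libraries. *Nobox* is lower and *Obox2* higher at a high index among the circles, with r of -0.84 and 0.69, and the squares of *Obox2* lie between 4430 and 5111 CPM.

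The remaining genotype pairs of the Spo11-Cre background gave no call among the 10 genes by edgeR or by DESeq2. Against wt/fl, 0.0223% of all genes were called in fl/del and 0.197% in that genotype with Spo11-Cre. Against wt/fl Spo11-Cre, the shares were 0.201% and 0.0357% for the same 2 groups, and between these 2 groups the share was 0.241%. At an unadjusted p under 0.05, of the 9 genes with at least 10 CPM, these 5 pairs had 1, 2, 1, 2 and 0, beside 8.52%, 10.4%, 9.24%, 7.11% and 8.32% of all genes.

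*Nobox* in fl/del measured 592, 604, 523 and 649 CPM, which is 83.7% of the wt/fl mean (log2 fold change -0.24, SE 0.09, adjusted p = 0.527). In fl/del Spo11-Cre it measured 684, 509, 643 and 646 CPM, or 87.7% of wt/fl (log2 fold change -0.19, SE 0.09, adjusted p = 0.452). Both groups overlapped the wt/fl libraries. The difference between the Spo11-Cre groups of the 2 genotypes did not pass either (0.23, SE 0.09, adjusted p = 0.702).

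Whether Spo11-Cre acted differently with and without the del allele was tested as an interaction. All genes were called at 0.103% and none of the 10 by edgeR, against 1 by DESeq2, which called 95 genes in all. At an unadjusted p under 0.05 the count was 2 of the 9, beside 10.3% of all genes. *Nobox* had the largest value among these 9, 0.46 (SE 0.12, adjusted p = 0.12), where its means were 707 CPM without and 521 CPM with Spo11-Cre in wt/fl, and 592 ± 52.1 and 621 ± 76.7 CPM (n = 4 each) in fl/del. With the length index described above as a covariate it was 0.29 (adjusted p = 0.428). The adjusted p was 0.0499 without wt/fl replicate 3 and 0.0231 without fl/del Spo11-Cre replicate 2, so single libraries set this call.

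In the fl/fl libraries, where another driver removes both alleles, *Obox1* and *Obox2* fell against wt/fl. *Obox1* measured 3231, 3019, 3291 and 2822 CPM in wt/fl, 2578 and 2631 CPM in fl/fl Gdf9-Cre and 2308 and 2415 CPM in fl/fl Zp3-Cre. All 4 fl/fl libraries were below all 4 control libraries, where 5.05% of all genes with a count did not overlap. The mean over the 4 fl/fl libraries was 80.3% of wt/fl, the log2 fold change -0.41 (SE 0.09, adjusted p = 0.0045), and an exact two-sided permutation test gave p = 0.0286, the smallest that 4 against 4 allow.

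*Obox2* measured 6281, 5809, 6612 and 5227 CPM in wt/fl, 4733 and 5111 CPM in fl/fl Gdf9-Cre and 4430 and 4778 CPM in fl/fl Zp3-Cre, again without overlap, as in 5.05% of all genes. Its mean was 79.6% of wt/fl, with a log2 fold change of -0.42 (SE 0.10, adjusted p = 0.00544) and an exact two-sided permutation p = 0.0286. Since reads of *Obox1* and *Obox2* cannot be fully separated, these 2 calls are not independent of each other. In this comparison 2.79% of 23225 genes were called, and the median log2 fold change was -0.16 over the 9 members and -0.03 over all genes tested. With Gdf9-Cre alone as the fl/fl group, the values were -0.32 for *Obox1* (adjusted p = 0.176) and -0.35 for *Obox2* (adjusted p = 0.139), and with only the fl/fl and wt/fl libraries in the fit they were -0.39 (adjusted p = 0.0617) and -0.40 (adjusted p = 0.0511).

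*Obox5* and *Obox7* had values of the same sign, -0.26 (SE 0.09, adjusted p = 0.126) and -0.16 (SE 0.13, adjusted p = 0.618), and neither passed. *Obox5* measured 2638 and 2593 CPM with Gdf9-Cre and 2610 and 3120 CPM with Zp3-Cre, the last of which lay inside the wt/fl range of 2787 to 3435 CPM. Without that library, Zp3-Cre replicate 2, *Obox5* was called at -0.35 (adjusted p = 0.013). The summed level of the 4 Obox genes was 12619 ± 1101 CPM in wt/fl (SD, n = 4) and 13629 ± 456 with Spo11-Cre (n = 5), and 12694 ± 1005 without and 12594 ± 1570 with Spo11-Cre in fl/del (n = 4 each). It was 10592 ± 186 CPM with Gdf9-Cre and 10242 ± 768 CPM with Zp3-Cre (n = 2 each). The shares in the summed TPM moved too, with no test made. *Obox2* went from 51.9% in wt/fl to 51.0% with Gdf9-Cre and 49.6% with Zp3-Cre, *Obox5* from 20.7% to 20.9% and 23.7%, and *Obox7* from 4.02% to 4.8% and 4.53%.

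Against fl/del Spo11-Cre, which also lacks both functional alleles, the same *Obox1* and *Obox2* were called lower in fl/fl, where 2.9% of all genes were called. This comparison shares the fl/fl libraries with the one above. The fl/del Spo11-Cre libraries measured 3191, 3264, 2556 and 2978 CPM for *Obox1* and 6323, 7000, 5046 and 5499 CPM for *Obox2*, and for both genes at least 1 of them overlapped the fl/fl range. For *Obox1* the log2 fold change was -0.36 (SE 0.09, adjusted p = 0.0152) and an exact two-sided permutation test gave p = 0.0857. For *Obox2* the log2 fold change was -0.41 (SE 0.10, adjusted p = 0.00638) and the exact permutation p was 0.0571. The call of *Obox1* was lost without fl/del Spo11-Cre replicate 1 (adjusted p = 0.093), without its replicate 2 (adjusted p = 0.112) or without fl/fl Zp3-Cre replicate 1 (adjusted p = 0.067), and the call of *Obox2* without fl/del Spo11-Cre replicate 2 (adjusted p = 0.1).

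*Lhx8* was on the other side in this comparison. It measured 165, 154, 158 and 182 CPM in the fl/fl libraries and 125, 103, 142 and 125 CPM in fl/del Spo11-Cre, without overlap (5.23% of all genes). The log2 fold change of 0.33 (SE 0.11, adjusted p = 0.119) did not pass. *Nobox* was at 766 and 658 CPM with Gdf9-Cre and 572 and 767 CPM with Zp3-Cre, within the wt/fl range except for the library at 572. *Tbpl2* had the lowest value of the 9, -0.44 (SE 0.19, adjusted p = 0.251). The length index of the fl/fl libraries ran from -0.14 to 0.38, across the range of the other groups, and with it as a covariate *Obox1* and *Obox2* had -0.43 and -0.45 against wt/fl (adjusted p = 8.23e-05 and 6.27e-05). In that fit *Obox5* was called too, at -0.27 against both wt/fl (adjusted p = 0.031) and fl/del Spo11-Cre (adjusted p = 0.0293).

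Between the Gdf9-Cre and the Zp3-Cre libraries none of the 10 genes was called by edgeR or DESeq2, and 0.891% of all genes were called. None of the 9 had an unadjusted p under 0.05, beside 7.14% of all genes. With 2 libraries each, the SE of the members ran from 0.13 for *Obox1* to 0.37 for *Taf4b* on the log2 scale, so only large differences could pass.

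**Figure D4:**
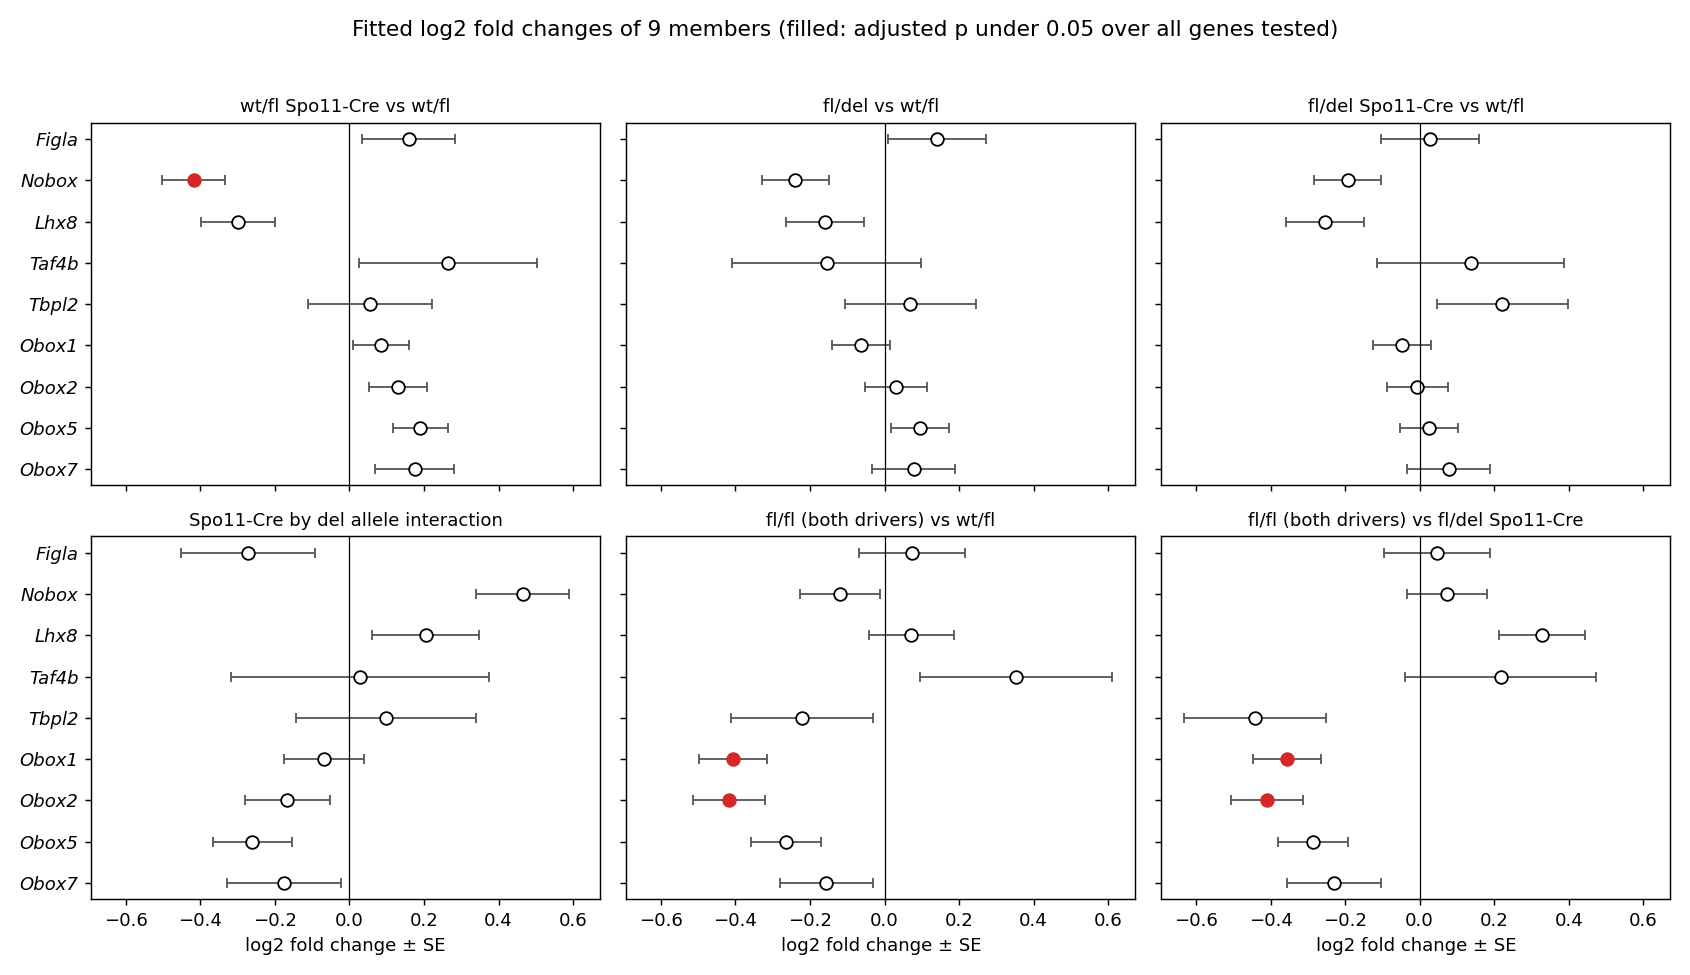
Fitted log2 fold changes ± SE of the 9 members with at least 10 CPM in 6 comparisons; filled points have an adjusted p under 0.05 over all genes tested. *Nobox* is filled with Spo11-Cre in wt/fl (-0.42), and *Obox1* and *Obox2* in both fl/fl comparisons (between -0.36 and -0.42).

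*Figla*, *Taf4b* and *Tbpl2* were not called in any of these comparisons by edgeR or DESeq2, and their lowest unadjusted p in edgeR was 0.0232, for *Tbpl2* in fl/fl against fl/del Spo11-Cre. *Figla* had group means between 53.9 ± 7.39 CPM (SD, n = 4) in wt/fl and 61.1 ± 15.7 CPM (n = 2) in fl/fl Gdf9-Cre, with all groups overlapping wt/fl. *Tbpl2* had group means between 18.4 ± 2.14 CPM (n = 2) in fl/fl Gdf9-Cre and 25.1 ± 3.0 CPM (n = 4) in fl/del Spo11-Cre. *Taf4b* varied most between replicates of a group, with a mean of 11.4 ± 3.04 CPM (n = 4) in wt/fl and 16.5 ± 7.46 CPM (n = 2) in fl/fl Zp3-Cre. The SE of the fitted log2 fold changes against wt/fl was 0.12 to 0.14 for *Figla*, 0.17 to 0.19 for *Tbpl2* and 0.24 to 0.26 for *Taf4b*, which sets what could be detected for each.

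Across the 17 libraries of the Spo11-Cre background, log2(CPM + 1) was correlated for the 36 pairs of the 9 members. The permutation p of Pearson's r (100000 resamples, Benjamini-Hochberg adjusted over the 36) was under 0.05 for 13 pairs, 6 positive and 7 negative. Libraries of one mouse are not independent, so these p-values are too small. The Obox genes moved together between libraries, with r = 0.88 for *Obox1* and *Obox2* (rho = 0.80, permutation p of r and rho 1e-05 and 0.00015, the former the smallest that these resamples give, adjusted p = 0.00036 and 0.0036), a pair that also shares sequence. *Obox2* and *Obox5*, which share none of the 100-base stretches, had r = 0.80 (rho = 0.68, permutation p = 0.00016 and 0.00346, adjusted p = 0.00288 and 0.0156). Without the 2 libraries farthest from the median of the first gene, r was 0.77 and 0.73.

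*Nobox* and *Lhx8* also moved together, with r = 0.78 (rho = 0.72, permutation p = 0.00028 and 0.00147, adjusted p = 0.00297 and 0.00882), and r = 0.66 without the 2 farthest libraries. Both had negative values with the 4 Obox genes, whose r passed for *Lhx8* with all 4 and for *Nobox* with *Obox2* and *Obox5* but not with *Obox1* or *Obox7* (adjusted p = 0.0932 for both). *Nobox* and *Obox5* had r = -0.75 (rho = -0.79, permutation p = 0.00061 and 0.00034, adjusted p = 0.00314 and 0.00408), and r = -0.70 without the 2 farthest. *Lhx8* and *Obox5* had r = -0.77 (rho = -0.80, permutation p = 0.00033 and 0.0002, adjusted p = 0.00297 and 0.0036), and r = -0.66 without the 2 farthest. After subtraction of each genotype's mean, r was 0.90, 0.78, 0.67, -0.63 and -0.77 for these 5 pairs in the order given, so the relations were present within genotypes. The members of each side also share their sign with the length index, and the part of the index in these correlations was not tested.

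**Figure D5:**
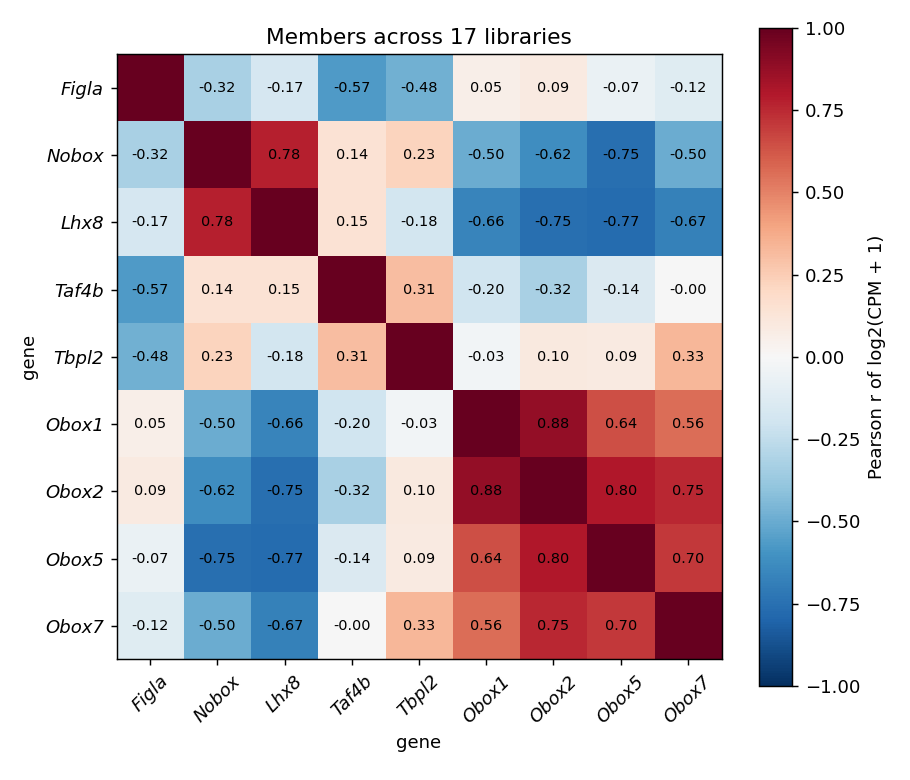
Pearson r of log2(CPM + 1) between the 9 members over the 17 libraries of the Spo11-Cre background, from -1 (blue) to 1 (red). The 4 Obox genes form a positive block from 0.56 to 0.88, *Nobox* and *Lhx8* a positive pair at 0.78, and the values between these 2 sets run from -0.77 to -0.50.

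The genes most like each member were searched among 7754 genes with at least 10 CPM over the 21 libraries, as a description. *Obox1* and *Obox2* were each other's nearest, with r = 0.94 (rho = 0.89), and *Obox1* was next nearest to *Gm19299* (0.81) and *Obox2* to *Gm45587* (0.84). For *Obox5* the nearest were *Epb41l4a* (0.841) and *Obox2* (0.838), and for *Obox7* *Gm49742* (0.77) and *Dcaf13* (0.75). *Nobox* was nearest to *Laptm4b* and *Wdr20* (both 0.87), and *Lhx8* to *Aldh9a1* (0.86) and *Cdc42se2* (0.85). *Figla* was nearest to *Ndufa7* (0.78) and *Ifitm6* (0.75), *Taf4b* to *Ddx5* (0.81) and *Atp8a1* (0.76), and *Tbpl2* to *Eif4e* (0.76) and *AA792892* (0.75). Each of these is the maximum of 7754 values over 21 libraries, and no test was made.

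Genes that work with these factors were measured as a list of 14, which holds *Sohlh2*, the E proteins that pair with helix-loop-helix factors, and general factors such as TFIIA and TFIIB. All 14 were tested in every comparison. The highest by level was *Gtf2b*, the gene of TFIIB, at 477 TPM, and the lowest *Tcf4*, an E protein, at 0.129 TPM. Among the Spo11-Cre groups, *Tcf4* was called lower in fl/del (mean 0.292 CPM) than in wt/fl (mean 3.64 CPM), where 0.0357% of all genes were called. The log2 fold change was -3.70 (SE 0.77, adjusted p = 0.0363). The lower mean lies near the limit given above for a count of 0, so the size of this fall is uncertain. *Gtf2a1*, which encodes the TFIIA large subunits that act with TBPL2, rose in fl/fl against wt/fl (0.55, SE 0.16, adjusted p = 0.0443) and against fl/del Spo11-Cre (0.54, SE 0.16, adjusted p = 0.0465), with means of 46.8 CPM in wt/fl, 47.3 in fl/del Spo11-Cre, 61.1 in fl/fl Gdf9-Cre and 87.7 in fl/fl Zp3-Cre. Of all genes, 2.79% and 2.9% were called in these fl/fl comparisons. No other gene of the list was called in any of the 10 comparisons.

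Oocyte genes that depend on these factors, by background knowledge, were measured as a list of 20, all expressed, from *Pou5f1* at 16.7 TPM to *H1foo* at 17955 TPM. With Spo11-Cre in wt/fl, 1 rose and 1 fell, where 2.19% of all genes were called. No comparison with genes of a like level was made. *Zp1*, a zona pellucida gene, fell by 0.30 (SE 0.09, adjusted p = 0.0466), from 1219 to 977 CPM, and *Ooep*, a gene of the subcortical maternal complex, rose by 0.33 (SE 0.09, adjusted p = 0.0292), from 2480 to 3054 CPM. *Ooep* was also called in the interaction (-0.56, SE 0.13, adjusted p = 0.0485), where 0.103% of all genes were called. Its mean in fl/del was 3047 CPM without and 2617 CPM with Spo11-Cre. The median of the list was 0.06 with Spo11-Cre in wt/fl and -0.19 in the interaction, beside 0.03 and -0.01 over all genes tested.

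In the fl/fl libraries against wt/fl, 1 of the 20 rose and 3 fell, where 2.79% of all genes were called. *H1foo*, the oocyte linker histone, fell by 0.41 (SE 0.08, adjusted p = 0.00112), *Zp1* by 0.47 (SE 0.11, adjusted p = 0.00483) and *Zp3* by 0.32 (SE 0.09, adjusted p = 0.0418). *Oosp3*, a secreted oocyte protein gene, rose by 0.38 (SE 0.10, adjusted p = 0.0236). Against fl/del Spo11-Cre, where 2.9% of all genes were called, 2 rose and 2 fell. These were *H1foo* (-0.44, adjusted p = 0.00034), *Zp3* (-0.34, adjusted p = 0.0216), *Oosp3* (0.40, adjusted p = 0.0145) and *Astl*, the gene of the ovastacin protease (0.49, adjusted p = 0.0415). *Rspo2*, a WNT signalling enhancer, was higher in fl/fl Gdf9-Cre than in fl/fl Zp3-Cre (0.89, SE 0.14, adjusted p = 5.34e-05), with means of 633 and 351 CPM. In that comparison 0.891% of all genes were called. Over the 20 genes the median was -0.01 against wt/fl and 0.01 against fl/del Spo11-Cre, beside -0.03 and -0.07 over all genes tested.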

How the data were processed

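Poly(A) RNA of 21 libraries was amplified as full-length cDNA with SMART-Seq v4, tagmented with Nextera XT and sequenced as 150-bp paired reads. This chemistry does not mark strand. Per the submitters' processing notes and the methods, the authors used fastp for trimming, HISAT2 2.2.1 for alignment to GRCm38, and featureCounts 2.0.3 with Ensembl release 93 for counting, in which only reads with a unique position count. The authors deposited whole counts, without normalization, and TPM values, whose computation is not given in the sources used here.

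For the median gene of a library, the all-exon table held 1.93 to 1.96 times the counts of the table made with *Kif11* exon 22, the scale of mates counted one by one against read pairs. CPM was computed from the deposited all-exon counts, with library totals of 7205010 to 18454549. Intervals and limits cover counting error only. Groups were compared with edgeR 4.0.16 (R 4.3.3; TMM, glmQLFit, glmQLFTest) on genes that had counts in 3 or more libraries, with Benjamini-Hochberg adjustment over all genes tested. Comparisons within the Spo11-Cre background used 1 fit of 17 libraries, and those with fl/fl a fit of 21. The SE is the log2 fold change divided by the root of F. TMM factors of the fl/fl libraries were 1.03 to 1.10, so their fitted values lie below ratios of CPM. Called members were also compared by exact permutation tests. The code was tested on simulated data.

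The members and lists were chosen with earlier results of these data known. Named genes are *Kif11*, the members, the 2 genes most correlated with each member of at least 10 CPM, and genes of the partner, Obox and target lists that passed an adjusted p of 0.05 (up to 5 per list and comparison) or were highest or lowest by level. Positions are from GENCODE vM21 (GRCm38) and promoters from RefSeq. Alternatives were RLE factors, DESeq2 1.42.0, no filter, filterByExpr, counts of the table made with *Kif11* exon 22, fits of the compared groups alone (all 21 for the interaction), a replicate block, sums over libraries sharing a name prefix, and leaving out each library. After the data were seen, the length index as a covariate and each fl/fl driver alone were added. Levels were also taken with TMM sizes, as TPM and as medians. The tables restricted to exon 1 were not used. Replicate libraries differed by more than counting noise (chi-square per degree of freedom 5.27 to 18.5), so none was a copy of another. Each was counted once in the fits. This does not make libraries of one mouse independent.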

Additional observations from a re-analysis of the deposited data

Results flagged for a closer look

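*Sohlh1* gave the only 2 flags among 39 sets of libraries (a gene in a group of 4 or 5 libraries) tested for a sample far from the others. In wt/fl replicate 1 it was at 0.42 CPM (6 counts) and in fl/del replicate 1 at 0.512 CPM (8 counts), while the other libraries of each group were at 0. Such a test flags about 1 in 20 groups by chance, and a gene at 0 in all libraries but 1 always meets it.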

How the results depend on the processing

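Of 1804 pairs of a gene-wise comparison and an alternative, 1777 kept their side of the threshold, 13 lost a call, 14 gained one and 0 reversed a called direction. *Nobox* in wt/fl Spo11-Cre against wt/fl stayed called in 17 of 18 alternatives and without each library in turn (-0.48 to -0.36, adjusted p = 0.000895 to 0.0257); the length index as a covariate gave 0 called members, and DESeq2 gave 2, with *Lhx8* (adjusted p = 0.036). For the interaction, where 0 members were called, no filter on low counts, the replicate block and DESeq2 each gave 1 (*Nobox*). Of all genes, these fits called 138, 96 and 95, against 23. Leaving out single libraries gave 0 to 1 members. For fl/fl against wt/fl, the 2 calls became 0 with the compared groups alone in the fit, which leaves fewer libraries to estimate the spread, and 0 with the Gdf9-Cre libraries alone as fl/fl. For fl/fl against fl/del Spo11-Cre, the 2 became 4 with DESeq2, which called 1065 of all genes, against 673. They became 0 with the compared groups alone, 0 with Gdf9-Cre alone, and 0 to 3 without single libraries. The cause of these changes was not tested. The other 6 comparisons had 0 called members under every alternative run. The number of all genes called with Spo11-Cre in wt/fl (491) was 57 to 931 over the alternatives, 57 with the length index and 931 with DESeq2; it was 179 without wt/fl replicate 2, 266 without wt/fl replicate 4 and 263 without wt/fl Spo11-Cre replicate 5. That of fl/fl against wt/fl (647) was 238 to 1109, and it was 303 without fl/fl Zp3-Cre replicate 1, 392 without fl/fl Gdf9-Cre replicate 2, 408 without wt/fl replicate 2 and 1353 without fl/fl Zp3-Cre replicate 2. That of fl/fl against fl/del Spo11-Cre (673) was 247 to 1128, and it was 416 and 441 without fl/del Spo11-Cre replicates 2 and 3, and 424 and 1263 without fl/fl Zp3-Cre replicates 1 and 2. That of Gdf9-Cre against Zp3-Cre (207) was 7 with the compared groups alone, and 127 without Gdf9-Cre replicate 2 and 398 without Zp3-Cre replicate 2. That of the interaction (23) was 2 to 138, and 4 (without wt/fl replicate 1 or fl/del replicate 3) to 60 (without fl/del Spo11-Cre replicate 2). Small counts also moved: against wt/fl, fl/del (5) had 1, 10 or 18 without fl/del replicate 3, wt/fl replicate 3 or fl/del replicate 1, and fl/del Spo11-Cre (44) had 71 without its replicate 1. Against wt/fl Spo11-Cre, fl/del (45) had 27 and 20 without its replicates 3 and 4, and fl/del Spo11-Cre (8) had 3 to 4 without its replicate 1 or 2 or wt/fl Spo11-Cre replicate 2 or 4. Of 390 levels in CPM, 385 moved by less than 1 SD under TMM sizes, another count table, the median or the loss of 1 library. A median, or a mean without 1 library, cannot lie more than 1 SD from the full mean. For those settings the count is therefore no test, and only the TMM sizes and the other count table could have moved a level. Levels as a percentage of wt/fl were judged apart, where 49 stayed the same and 1 moved.

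Replicate numbers did not pair the libraries: the correlation of their deviations from the group means ranged from -0.16 to 0.16 over 24 same-numbered pairs (median 0.02), and 6 of 17 libraries correlated best with their own number. With the replicate block, members called were 1 with Spo11-Cre in wt/fl and 1 in the interaction. They were 3 in each fl/fl comparison with wt/fl or fl/del Spo11-Cre, where *Obox5* was added (adjusted p = 0.0203 and 0.0104). Of all genes, the block called 96 in the interaction, against 23 without it. In these fl/fl comparisons it called 824 and 785, against 647 and 673. With Spo11-Cre in wt/fl it called 454, against 491.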
